A study of Rattus norvegicus with 15 samples.

Results

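Sodium, calcium and HCN channel genes were followed in the ventral tegmental area of rats given ethanol or water. Members were the genes that the array annotation names with exactly 1 symbol beginning with Scn and a digit, Cacna, Cacnb, Cacng, or Hcn and a digit, with Scn4b left out. This gave 38 genes of the 14224 that the array named with 1 symbol. They had 54 probe sets, the sets of short probes that together measure a transcript. Each gene was read from the probe set with the highest mean over all 15 arrays, and 11 genes had more than 1 to choose from. The rule for the genes used names only, and that for the probe sets used the mean level, not a difference between the groups. The set of genes was nevertheless proposed with earlier results of these data known. Other genes of these families were not analysed here.

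The study had 7 rats with ethanol treatment and 8 age-matched control rats with water. Per the series title the rats belonged to the alcohol-preferring (P) line, which was selectively bred for its alcohol intake, and the drinking was of a loss-of-control kind. Every array held the RNA of 1 animal, and all groups shared species (Rattus norvegicus), tissue and laboratory protocol. RNA was taken out with Trizol and an RNeasy column, and 25 ng of total RNA was amplified in a 2-cycle procedure to biotin-labelled cRNA. Ethanol animal 3 was not analysed here. The sources used here do not give age, sex, litter, dose, drinking schedule or the way the midbrain was dissected. The tissue is a mixture of cells, so fewer cells of a type and less RNA per cell cannot be told apart in any value below.

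Voltage-gated sodium channels open at once on depolarization and carry the upstroke of the action potential. Each has a large alpha subunit that forms the pore and smaller beta subunits that alter its gating and its place in the membrane. Voltage-gated calcium channels are built around an alpha1 subunit, with a cytoplasmic beta subunit and an alpha2delta subunit that help bring it to the surface. Their calcium triggers transmitter release, opens calcium-gated potassium channels and signals to the nucleus. HCN channels open on hyperpolarization and conduct a mixed cation current that brings a neuron back toward threshold. Dopamine neurons of the midbrain fire on their own as slow pacemakers, and L-type calcium channels, sodium channels and HCN channels all take part in that rhythm.

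The values were log2 expression from RMA, a procedure that gives every array the same distribution. Dopamine neuron markers were high in both groups: Th, the rate-limiting enzyme of dopamine synthesis, averaged 14.94 ± 0.22 in ethanol rats (SD, n = 7) and 14.80 ± 0.26 in water rats (SD, n = 8). Of 10 such markers 8 passed the filter on dim probe sets, Pitx3 did not, and En1 was not analysed here. Their summed linear level spanned 91960 to 138310 in ethanol rats and 76788 to 126500 in water rats. The mean of the dopamine list differed by 0.15 log2 units (exact permutation adjusted p = 0.471, two-sided, over 13 measures). Of the 10 marker lists, 2 moved with the treatment: the mean of the oligodendrocyte list was lower in ethanol rats by a log2 difference of -0.28, and that of the microglia list was higher by 0.24 (exact permutation adjusted p = 0.0101 for each). The other 8 lists had adjusted p between 0.0956 and 0.976. Water rats 7 and 8 stood apart from the other 13 on the first principal component, which held 30.7% of the variance, with scores of 21.4 and 21.0 against at most 12.5. Several values are also given without these rats.

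No channel gene passed the test for ethanol against water. Probe sets were tested if their mean reached the 40th percentile of all probe sets, a log2 level of 6.94, and 22 of the 38 genes did. By limma with Benjamini-Hochberg adjustment over all 18625 kept probe sets, 0 of the 22 had an adjusted p below 0.05, where 0.929% of all kept probe sets did. At an unadjusted p below 0.05 the count was 1, Scn3a, against 12.1% of all kept probe sets. The exact permutation test over the 6435 divisions of the rats also gave 1, the same gene. In 0 of the 22 did the groups fail to overlap, against 0.623% of all kept probe sets. The other 16 genes lay below the filter. In the fit of all probe sets 0 of these 16 passed, against 0.448% of all probe sets, and 0 had an unadjusted p below 0.05. Their smallest adjusted p was 0.526, for Cacna1e. The share of all probe sets with an unadjusted p below 0.05 in that fit was not computed.

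The differences were small on both sides of zero. Means were higher in ethanol rats for 19 of the 22 genes and lower for 3, namely Scn1a, Cacna1c and Cacna2d1. The median difference was 0.059 log2 units, against 0.0062 over all kept probe sets, of which 53.3% were higher in ethanol rats. The count of 19 moved with single animals, and was between 15 and 21 when 1 rat was left out. Without water rats 7 and 8 it was 14 of 22, against 52.0% of all kept probe sets. With every array centred on its own median it was 17 of 22, against 44.5% of all kept probe sets. The median difference of all kept probe sets was then -0.0099. Of the 16 genes below the filter, 8 were higher and 8 lower in ethanol rats in the fit of all probe sets. The channel genes also varied more among rats of a group than most transcripts, with a median pooled SD of 0.164 log2 units against 0.111 over all kept probe sets. This spread widened the standard error of their differences to a median of 0.079, against 0.056.

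**Figure D1:**
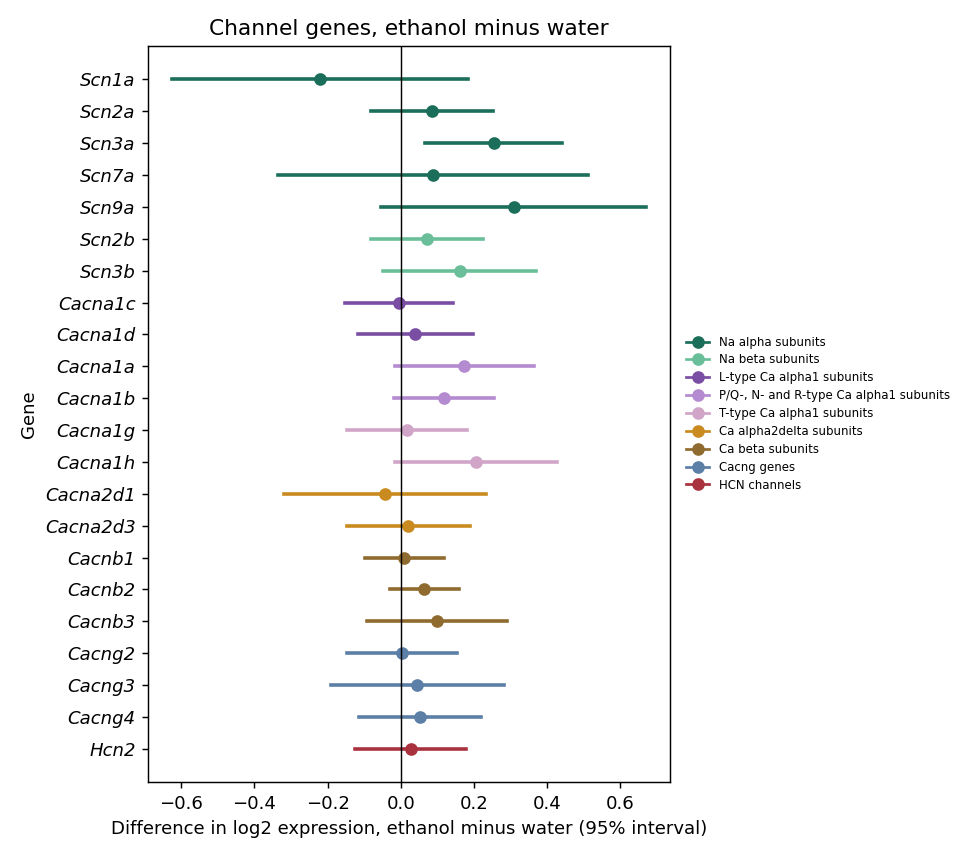
Ethanol minus water difference in log2 expression of the 22 channel genes that passed the filter, with points for the estimate and lines for its 95% interval, coloured by family. Only the interval of Scn3a (0.07 to 0.44) leaves out zero, and after adjustment no gene passed.

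Sodium channel alpha subunits held the largest positive and the largest negative difference of the 22 genes, and neither passed. Scn3a encodes Nav1.3, a channel abundant in the embryonic rat brain and lower in the adult. Its lowest, median and highest log2 values were 10.56, 10.73 and 11.06 in ethanol rats, against 10.13, 10.58 and 10.72 in water rats. All 7 ethanol rats were above the water mean, 4 of them were above every water rat, and the groups overlapped between 10.56 and 10.72. The difference was 0.25 (SE 0.09, 95% interval 0.07 to 0.44, limma adjusted p = 0.237), a ratio of 1.19, and the exact permutation p was 0.0131 before adjustment. Water rat 7 was the lowest by a wide margin, and without it the difference was 0.20 (adjusted p = 0.324); without water rats 7 and 8 it was 0.18.

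Scn9a encodes Nav1.7, best known from pain-sensing neurons and also present in the brain. It ran from 9.18 over a median of 9.51 to 9.91 in ethanol rats, against 8.47, 9.37 and 9.73 in water rats. The groups overlapped, and the lowest 2 values of the 15 belonged to water rats 7 and 8. The difference of 0.31 (SE 0.17, adjusted p = 0.491) was the largest among the 22 genes. Without water rats 7 and 8 it was 0.094 (adjusted p = 0.859).

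Scn1a encodes Nav1.1, the main sodium channel of many fast-spiking interneurons. Its values were 11.42, 11.99 and 12.28 in ethanol rats, against 11.48, 12.09 and 12.71 in water rats. The 2 highest rats were again water rats 7 and 8, and the lowest was an ethanol rat. The difference was -0.22 (SE 0.19, adjusted p = 0.675), and -0.022 without those 2 water rats (adjusted p = 0.985).

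Scn2a, which encodes Nav1.2 of unmyelinated axons and early initial segments, had 11.00, 11.15 and 11.38 in ethanol rats, against 10.88, 11.04 and 11.40 in water rats. The water range held every ethanol rat, and the difference was 0.085 (SE 0.08, adjusted p = 0.696), or 0.025 without water rats 7 and 8. Scn7a, the sodium-sensing channel Nax, spread from 9.19 to 9.78 in ethanol rats and from 8.24 to 10.06 in water rats, so the water range held every ethanol rat (difference 0.088, adjusted p = 0.895). Scn4a, Scn8a, Scn10a and Scn11a were below the filter. Among them Scn8a, which encodes Nav1.6 of the mature initial segment and nodes of Ranvier, averaged 6.24 ± 0.16 in ethanol rats (SD, n = 7) and 6.40 ± 0.25 in water rats (SD, n = 8; adjusted p = 0.619).

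**Figure D2:**
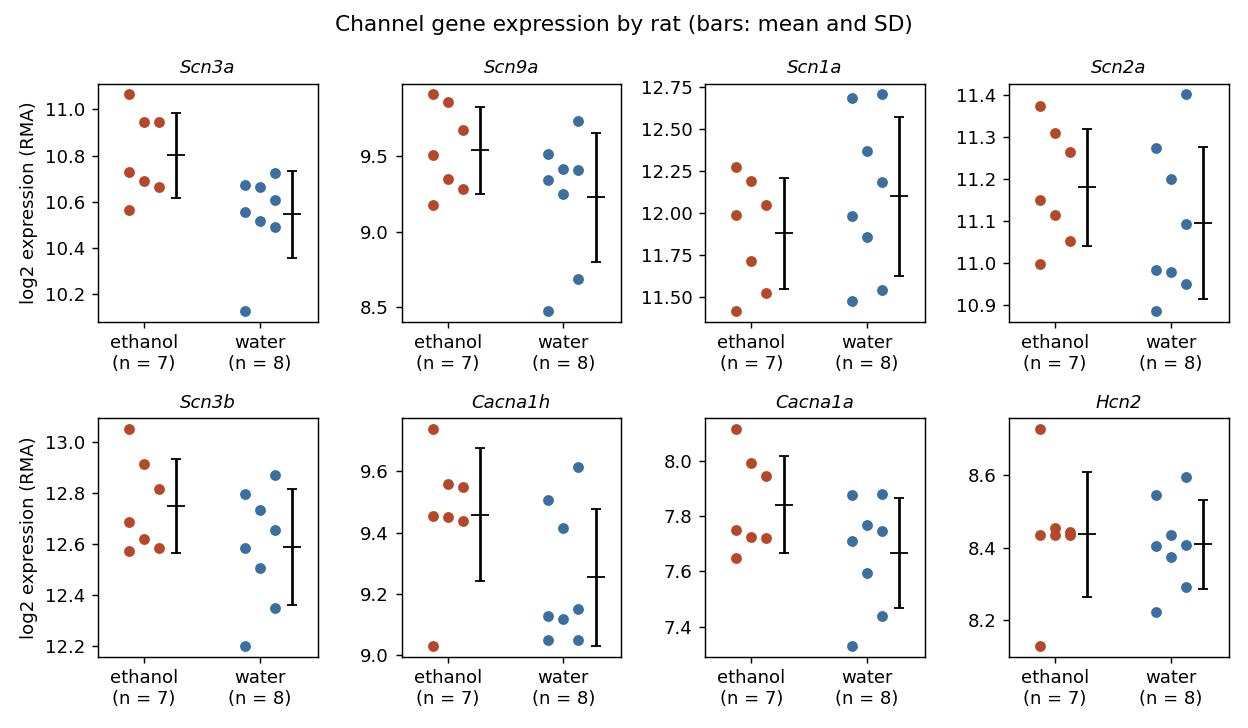
Log2 expression of 8 channel genes by rat, ethanol (n = 7) left of water (n = 8), with black bars for the mean and SD. The groups overlap in every panel, and water rats 7 and 8 are the 2 lowest points of Scn9a and the 2 highest of Scn1a.

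Both sodium channel beta subunits analysed had higher means in ethanol rats, without passing. Scn3b encodes a beta subunit held to the alpha subunit without a covalent bond. Its values were 12.57, 12.68 and 13.05 in ethanol rats, against 12.20, 12.62 and 12.87 in water rats. The lowest 2 rats were water rats 8 and 7 and the highest was ethanol rat 7, with overlap between. The difference was 0.16 (SE 0.10, adjusted p = 0.542), and a second probe set of the gene gave 0.21 (adjusted p = 0.460). The chosen probe set gave 0.057 without water rats 7 and 8 (adjusted p = 0.883) and 0.11 without water rat 8 alone. Scn2b, whose product is joined to the alpha subunit by a disulphide bridge, had a difference of 0.072 (SE 0.07, adjusted p = 0.722).

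L-type alpha1 subunits hardly differed between the groups. Cacna1d encodes Cav1.3, which opens at voltages low enough to act in dopamine neuron pacemaking. It read 6.94, 7.05 and 7.25 in ethanol rats, against 6.80, 7.06 and 7.28 in water rats. The ethanol range lay inside the water range, and the difference was 0.040 (SE 0.07, 95% interval -0.12 to 0.20, adjusted p = 0.862). Cacna1c, which encodes Cav1.2, the more common L-type channel of forebrain and heart, had 8.32, 8.42 and 8.78 in ethanol rats, against 8.30, 8.50 and 8.64 in water rats. The difference was -0.0043 (SE 0.07, 95% interval -0.15 to 0.14, adjusted p = 0.986). For both genes the interval left out a change of more than 0.20 log2 units in either direction. Cacna1f, the retinal channel, and Cacna1s, that of skeletal muscle, were below the filter.

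The presynaptic P/Q- and N-type alpha1 subunits leaned the same way as each other. Cacna1a, the pore of P/Q-type channels that trigger fast transmitter release, had 7.65, 7.75 and 8.11 in ethanol rats, against 7.33, 7.73 and 7.88 in water rats. Cacna1b, the pore of N-type channels, had 10.23, 10.33 and 10.56 in ethanol rats, against 10.05, 10.28 and 10.43 in water rats. For each gene 6 of 7 ethanol rats lay above the water mean, with wide overlap. The differences were 0.17 for Cacna1a (SE 0.09, adjusted p = 0.455) and 0.12 for Cacna1b (SE 0.06, adjusted p = 0.482). Without water rats 7 and 8 they were 0.080 and 0.055 (adjusted p = 0.798 and 0.821). Their other kept probe sets gave 0.021 and -0.015, so the lean was not shared by all probe sets of these genes. Cacna1e, the R-type pore, was below the filter with a difference of -0.10.

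T-type alpha1 subunits conduct near the resting potential and support rebound firing. Cacna1h, which encodes Cav3.2, read 9.03, 9.45 and 9.74 in ethanol rats, against 9.05, 9.14 and 9.61 in water rats. Of the ethanol rats 6 lay at 9.44 or higher, and ethanol rat 8 was the lowest of all 15. Among the water rats 5 lay at 9.15 or lower and 3 at 9.42 or higher. The difference was 0.21 (SE 0.10, 95% interval -0.02 to 0.43, adjusted p = 0.450), and 0.28 without ethanol rat 8 (adjusted p = 0.256). Averaged with the other probe set of the gene, which was dim, it was 0.064. Cacna1g (Cav3.1) differed by 0.017 (adjusted p = 0.948), and Cacna1i (Cav3.3) was below the filter.

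Auxiliary calcium channel subunits had differences from -0.044 to 0.10, and none passed. Cacna2d1, an alpha2delta subunit that binds gabapentin, had 9.78, 10.18 and 10.34 in ethanol rats, against 9.58, 10.18 and 10.60 in water rats. Its difference was -0.044 (SE 0.13, adjusted p = 0.921). Cacna2d3 had 10.80, 10.97 and 11.18 in ethanol rats, against 10.63, 10.98 and 11.11 in water rats, a difference of 0.020 (SE 0.08, adjusted p = 0.942). For each alpha2delta gene the group medians were almost equal and the ranges overlapped through most of their length. Cacnb2, a beta subunit that traffics the pore to the membrane, had 9.22, 9.38 and 9.46 in ethanol rats, against 9.18, 9.32 and 9.43 in water rats. Its difference of 0.065 (SE 0.04, 95% interval -0.03 to 0.16, adjusted p = 0.585) was the most tightly bounded of the 22. Cacnb1 and Cacnb3 differed by 0.010 and 0.10 (adjusted p = 0.953 and 0.690), and Cacnb4 was below the filter.

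The Cacng genes share a name with the muscle channel's gamma subunit, Cacng1, but several encode regulators of AMPA receptors. Cacng2, stargazin, delivers these glutamate receptors to synapses. It had 10.18, 10.28 and 10.55 in ethanol rats, against 10.11, 10.26 and 10.57 in water rats, a difference of 0.0040 (SE 0.07, adjusted p = 0.987). Cacng4, of the same AMPA receptor group, had 7.47, 7.68 and 7.96 in ethanol rats, against 7.46, 7.63 and 7.90 in water rats (difference 0.053, SE 0.08, adjusted p = 0.823). Rats of both groups were mixed through the range of each gene. Cacng3 differed by 0.046 (adjusted p = 0.902), and Cacng1, Cacng5, Cacng6, Cacng7 and Cacng8 were below the filter.

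Of the HCN channels analysed, Hcn2 passed the filter, and Hcn3 and Hcn4 did not. Hcn2 had 8.13, 8.43 and 8.72 in ethanol rats, against 8.22, 8.41 and 8.59 in water rats. The lowest and the highest of the 15 rats were both ethanol rats, and the difference was 0.027 (SE 0.07, 95% interval -0.12 to 0.18, adjusted p = 0.911).

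Neurofilaments are the structural polymers of large, myelinated and often fast-firing axons, and their 3 genes Nefh, Nefm and Nefl differed greatly among rats within each group. The mean of the 3 had 12.38, 14.20 and 14.75 log2 units as its lowest, median and highest value in ethanol rats, against 11.92, 14.52 and 15.22 in water rats. The range was 5.17-fold among ethanol rats and 9.80-fold among water rats, which held both the lowest and the highest rat of the 15, and the group means differed by -0.067 (exact permutation p = 0.914, two-sided, before adjustment). The widest gap lay between 13.46 and 14.20, with 9 rats above it (4 ethanol and 5 water) and 6 below it (3 of each). Water rats 7 and 8 were the 2 highest. The part of the dissection in this spread was not tested.

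Each gene was fitted with limma on the neurofilament mean with treatment as a term, and p-values were adjusted over 18621 kept probe sets. Of the 22 channel genes, 7 had a slope with an adjusted p below 0.05, or 31.8%, against 15.2% of all probe sets tested. A positive slope was called for 1 gene, against 8.34% of all probe sets, and a negative slope for 6, against 6.84%. Sodium channel subunits made up 5 of the 7 calls, from 7 that passed the filter, and calcium channel subunits 2, from 14. The slope is in log2 units of the channel gene per log2 unit of the neurofilament mean.

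**Figure D3:**
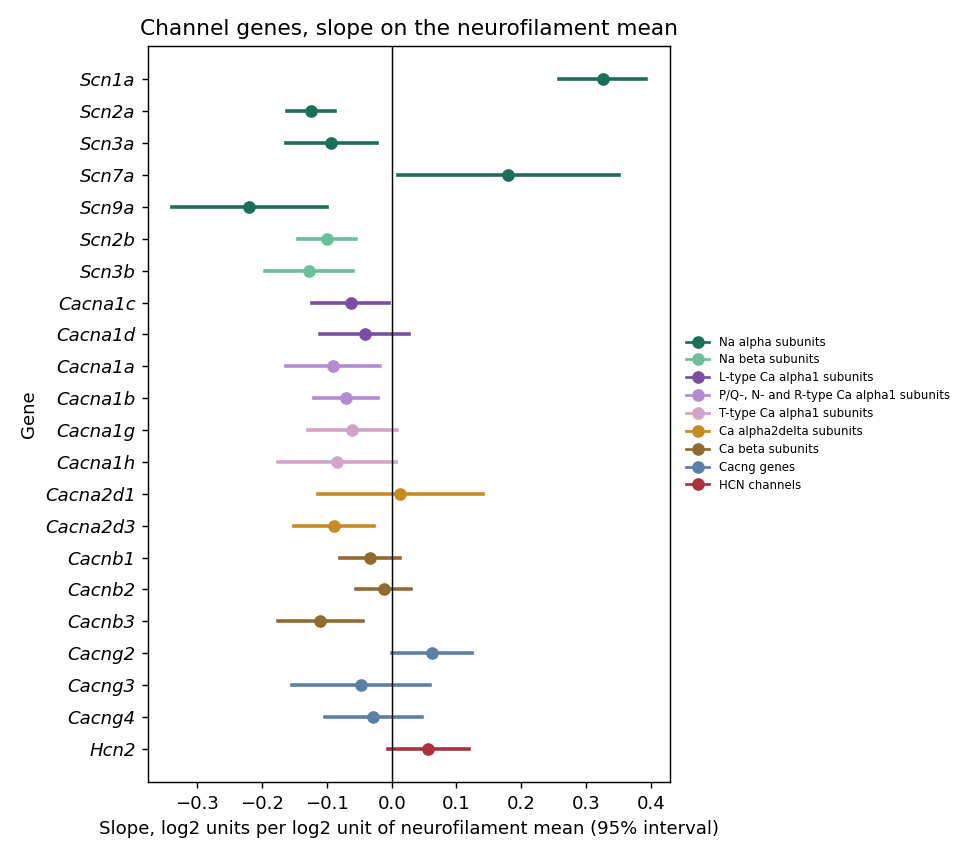
Slope of each of the 22 channel genes on the neurofilament mean, in log2 units per log2 unit, with points for the estimate and lines for its 95% interval, coloured by family. Scn1a lies far to the positive side at 0.33, while Scn2a, Scn9a, Scn2b, Scn3b, Cacnb3 and Cacna2d3 have negative slopes that passed.

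Scn1a rose with the neurofilament mean. In the 9 rats above the gap it had 11.99, 12.19 and 12.71, against 11.42, 11.54 and 11.86 in the 6 below it, and these ranges did not overlap. The slope was 0.33 (SE 0.03, limma adjusted p = 6.12e-06). Its range was 0.31 to 0.35 when 1 rat was left out, and the call held in all 15 of these fits. Within the 7 ethanol rats r was 0.979 (exact permutation p = 7.94e-04, rho = 0.964), and within the 8 water rats it was 0.924 (exact permutation p = 2.48e-04, rho = 0.976). Among the 9 upper rats alone Pearson r was 0.937 (exact permutation p = 2.07e-04, Spearman rho = 0.917), and among the 6 lower ones it did not pass (r = 0.416, exact permutation p = 0.417, rho = 0.486). Both sides are parts of the same 15 rats, split by their neurofilament values, and are no independent repeat. The share of all probe sets whose ranges do not overlap across the gap was not computed.

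Scn2a, whose gene is a near neighbour of Scn1a, fell with the neurofilament mean. It had 10.88, 11.00 and 11.15 in the 9 rats above the gap, against 11.20, 11.29 and 11.40 in the 6 below, again without overlap. The slope was -0.12 (SE 0.02, limma adjusted p = 2.26e-04), and its call held in all 15 fits with 1 rat left out. Within the 7 ethanol rats r was -0.936 (exact permutation p = 0.00258, rho = -0.929), and within the 8 water rats it was -0.902 (exact permutation p = 0.00491, rho = -0.905). Among the 9 upper rats r was -0.927 (exact permutation p = 5.35e-04, rho = -0.933), and among the 6 lower rats it was 0.219 (exact permutation p = 0.707, rho = 0.371). These values of r are unadjusted Pearson coefficients, and they were computed for all 22 genes. On the rat chromosome 3 of RefSeq's GRCr8 assembly the order is Scn3a, Scn2a, Csrnp3, LOC134486369, Galnt3, Ttc21b, Scn1a, Scn9a and Scn7a, so genes with called slopes of opposite sign, Scn1a and Scn9a, lie next to each other.

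**Figure D4:**
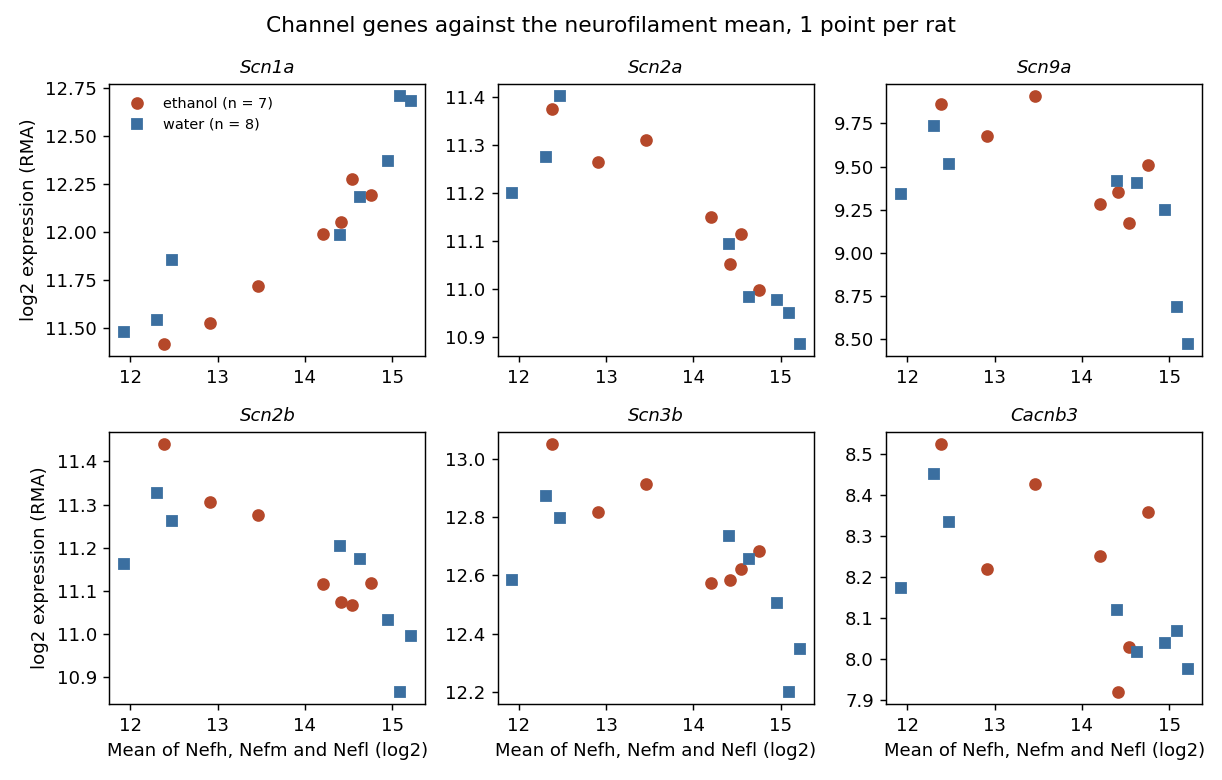
Log2 expression of 6 channel genes against the mean of Nefh, Nefm and Nefl, 1 point per rat, circles for ethanol (n = 7) and squares for water (n = 8). Scn1a is higher and the other 5 are lower at the right than at the left, and rats of both groups are mixed along the axis. Among the 6 rats at the left no trend passed, and r of those 5 genes was positive there (0.16 to 0.68).

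Scn9a had 8.47, 9.28 and 9.51 above the gap, against 9.34, 9.70 and 9.91 below it, and a slope of -0.22 (SE 0.06, adjusted p = 0.0168). Water rats 7 and 8 were at 8.47 and 8.69, and without them the slope was -0.13 (adjusted p = 0.143). The call also ended without water rat 1 (adjusted p = 0.0507). Among the 9 upper rats r was -0.734 (exact permutation p = 0.0212), and among the 6 lower rats it was 0.679 (exact permutation p = 0.136).

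Both of these sodium channel beta subunits fell with the neurofilament mean as well. Scn2b had a slope of -0.10 (SE 0.02, adjusted p = 0.00577) and Scn3b one of -0.13 (SE 0.03, adjusted p = 0.0153). A second probe set of Scn3b gave -0.15 (adjusted p = 0.0129). Both calls held whichever rat was left out, and both ended without water rats 7 and 8 together (slopes -0.084 and -0.092, adjusted p = 0.0569 and 0.137). Among the 9 upper rats r was -0.709 for Scn2b and -0.726 for Scn3b (exact permutation p = 0.0285 and 0.0242). Among the 6 lower rats it was 0.163 and 0.436 (exact permutation p = 0.769 and 0.393).

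Among calcium channel genes, Cacnb3 had a slope of -0.11 (SE 0.03, adjusted p = 0.0269) and Cacna2d3 one of -0.089 (SE 0.03, adjusted p = 0.0482). These calls were the least stable. The call of Cacnb3 ended in 4 of the 15 fits with 1 rat left out (without ethanol rat 7 or water rat 1, 3 or 7, adjusted p up to 0.0806), and that of Cacna2d3 in 10 (adjusted p up to 0.126). Without water rats 7 and 8 neither passed (adjusted p = 0.115 and 0.337). Among the 9 upper rats r was -0.244 for Cacnb3 and -0.493 for Cacna2d3 (exact permutation p = 0.529 and 0.178). Among the 6 lower rats it was 0.216 and -0.587 (exact permutation p = 0.682 and 0.233). Cacna1b (slope -0.070, adjusted p = 0.0534), Scn3a (-0.093, 0.0701), Cacna1a (-0.091, 0.0857) and Cacna1c (-0.063, 0.133) had negative slopes that did not pass. The other 11 genes had slopes between -0.084 (Cacna1h) and 0.18 (Scn7a) with adjusted p between 0.140 and 0.904.

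Without water rats 7 and 8, then, the slopes of Scn1a and Scn2a were the 2 calls of the 7 that held. The number of negative calls ranged from 3, without water rat 1, to 10, without water rat 5, and was 4 without ethanol rat 7, water rat 3 or water rat 7. Scn8a, below the filter, had a positive slope of 0.14 (SE 0.03, adjusted p = 0.0119 in the fit of all probe sets). This fit called a positive slope for 4.51% of all probe sets.

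Markers of several neuron types moved along the same axis. Of all probe sets tested, 8.34% had a positive slope that passed and 6.84% a negative one. Of the 8 dopamine neuron markers 2 had negative slopes that passed, the dopamine transporter Slc6a3 (-0.14, adjusted p = 0.0241) and the vesicular monoamine transporter Slc18a2 (-0.14, adjusted p = 0.0158), and the list ran from -0.14 to 0.12 with a median of -0.11. Of the 4 markers of GABA and glutamate neurons, Slc17a6, the vesicular glutamate transporter VGLUT2, had a positive slope that passed (0.64, adjusted p = 5.26e-04), and the median of the list was -0.14. All 5 markers of fast-firing neurons other than the neurofilaments had positive slopes that passed, among them the calcium buffer Pvalb (0.80, adjusted p = 6.88e-08). Of 8 general neuron markers 5 had positive slopes that passed and 0 negative ones, with a range from -0.12 for Syt1 to 0.11. The other markers that passed the filter were 9 of oligodendrocytes, 3 of their precursors, 7 of astrocytes, 8 of microglia, 7 vascular and 2 of muscle. Among these, 1 slope passed, the astrocyte transporter Slc1a3 (-0.066, adjusted p = 0.0397). The neurofilament mean also followed the first principal component of the arrays, with r = 0.965 in the 9 rats above the gap (exact permutation p = 5.51e-05, rho = 0.883) and r = 0.855 in the 6 below it (exact permutation p = 0.0333, rho = 0.714). The part of these cell types in the channel slopes was not tested.

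Probe sets of a gene did not always give the same answer. The 11 genes with several probe sets had 16 others between them, 10 of which were below the filter. The second kept probe set of Cacna1b had a slope of 0.030 against -0.070 for the chosen one, and that of Cacna1a 0.0012 against -0.091. Those of Cacnb1 (0.019 against -0.033) and Cacnb2 (0.030 against -0.012) also differed in sign, with no slope that passed. Those of Cacng2 (0.058 against 0.062) and Scn3b had slopes of the same sign as the chosen probe sets. Neither Scn1a nor Scn2a nor Scn9a had another probe set.

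Promoters are shown for 5 of the genes that followed the neurofilament mean, as the 250 bases before each gene's start in GRCr8, 5′ to 3′ on the strand of the gene. The RefSeq promoter table holds none for Scn1a or Scn3b, and Cacna2d3, also called, is not shown. The Scn2a window is chr3:70710706-70710955 on the plus strand, and that of Scn9a is chr3:71701378-71701627 on the minus strand. The Scn2b window is chr8:54322133-54322382, that of Cacnb3 chr7:131666301-131666550 and that of Scn8a chr7:133860977-133861226, all on the plus strand. Capitals mark GGGCGG, the core of the GC box bound by Sp1, or CCGCCC, the same letters on the other strand.
Scn2a: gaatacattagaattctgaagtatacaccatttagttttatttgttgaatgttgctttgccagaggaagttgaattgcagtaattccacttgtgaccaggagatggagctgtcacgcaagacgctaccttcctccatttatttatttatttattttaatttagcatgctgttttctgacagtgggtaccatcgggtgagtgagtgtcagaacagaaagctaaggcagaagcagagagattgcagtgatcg
Scn9a: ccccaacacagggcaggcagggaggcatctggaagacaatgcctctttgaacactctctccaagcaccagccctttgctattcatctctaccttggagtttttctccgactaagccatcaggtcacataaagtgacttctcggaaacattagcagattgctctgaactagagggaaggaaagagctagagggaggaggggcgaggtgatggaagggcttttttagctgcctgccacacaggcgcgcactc
Scn2b: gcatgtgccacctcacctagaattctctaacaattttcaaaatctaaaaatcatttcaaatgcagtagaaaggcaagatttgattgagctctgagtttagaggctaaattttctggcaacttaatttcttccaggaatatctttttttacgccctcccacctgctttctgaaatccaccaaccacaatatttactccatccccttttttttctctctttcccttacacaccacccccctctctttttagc
Cacnb3: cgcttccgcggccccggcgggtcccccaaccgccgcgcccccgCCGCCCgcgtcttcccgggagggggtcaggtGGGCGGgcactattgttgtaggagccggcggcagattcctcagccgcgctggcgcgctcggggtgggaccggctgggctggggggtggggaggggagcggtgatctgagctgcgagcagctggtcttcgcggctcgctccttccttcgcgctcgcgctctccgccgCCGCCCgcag
Scn8a: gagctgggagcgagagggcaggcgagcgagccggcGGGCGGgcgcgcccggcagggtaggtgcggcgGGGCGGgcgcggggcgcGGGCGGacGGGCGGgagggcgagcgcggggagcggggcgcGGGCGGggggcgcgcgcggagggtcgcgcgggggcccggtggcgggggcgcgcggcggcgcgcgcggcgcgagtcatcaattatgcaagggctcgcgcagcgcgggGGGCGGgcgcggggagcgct
Scn2a, Scn9a and Scn2b, with negative slopes, held 0 copies of GGGCGG, while Cacnb3, also negative, held 3 and Scn8a, with its positive slope, held 6. The windows of Cacnb3 and Scn8a were 76.4% and 86.0% G or C, against 39.6% for Scn2a, 52.4% for Scn9a and 38.8% for Scn2b. Besides GGGCGG, the CCAAT box and the TATA box (TATAAA) were searched on both strands, and none of the 5 windows held either, so no match overlapped that of another motif. Over all 33469 promoters of the table, 30.5% held GGGCGG, 34.0% held CCAAT and 12.9% held TATAAA. Of the 26 channel genes with a promoter in the table, 13 held GGGCGG, 4 held CCAAT and 2 held TATAAA. A channel gene counted if any of its promoters held the motif, while the share over the table was counted per promoter. A match is a description of letters in this window only.

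Proteins that anchor or tune these channels were read in the same way. Of 30 listed partners, 28 were analysed and 23 passed the filter. Means were higher in ethanol rats for 14 of the 23 and lower for 9, with a median difference of 0.020. By limma 1 of the 23 passed, a lower one, against 0.929% of all kept probe sets. It was Nfasc, which encodes neurofascin, a cell adhesion protein that holds sodium channels at initial segments and, in a glial form, joins myelin loops to the axon. Its lowest, median and highest values were 11.03, 11.12 and 11.22 in ethanol rats, against 11.32, 11.38 and 11.49 in water rats. Every ethanol rat was below every water rat. Groups that did not overlap were found in 0.623% of all kept probe sets.

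The Nfasc difference was -0.29 (SE 0.04, limma adjusted p = 0.00171), and it passed in all 15 fits with 1 rat left out. It did not hold for the gene as a whole: of its 5 probe sets another lay at -0.30 (adjusted p = 0.0872) and 3 at 0.14, 0.12 and 0.15 (adjusted p = 0.213, 0.293 and 0.492), and the mean of all 5 differed by -0.039 (adjusted p = 0.696). The oligodendrocyte list was lower in the same rats. Of its 9 genes that passed the filter 4 were called, against 0.929% of all kept probe sets. Its summed linear level spanned 168079 to 195189 in ethanol rats and 187203 to 230153 in water rats. The part of this list in the Nfasc difference was not tested. Of the 5 partners below the filter 1 passed in the fit of all probe sets, where 0.448% of probe sets did. This was Rem2, a small GTPase of the same group as Gem that restrains calcium channels, which had 5.58, 5.77 and 5.89 in ethanol rats, against 5.90, 6.04 and 6.22 in water rats. Its groups did not overlap, and the difference was -0.29 (SE 0.06, limma adjusted p = 0.0321), at a signal below the filter. The share of probe sets without overlap was not computed for the fit of all probe sets.

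Genes that remove calcium from the cytosol or store it showed no call between the groups. Of 13 listed, 10 passed the filter, and 0 had an adjusted p below 0.05 by limma, against 0.929% of all kept probe sets. At an unadjusted p below 0.05 the count was 1, against 12.1% of all kept probe sets: Itpr1, which encodes the inositol trisphosphate receptor of the endoplasmic reticulum. Itpr1 had 10.76, 11.00 and 11.29 in ethanol rats, against 10.52, 10.79 and 10.94 in water rats. The difference was 0.25 (SE 0.08, adjusted p = 0.215, exact permutation p = 0.0146 before adjustment), with overlap between 10.76 and 10.94.

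The same lists were read along the neurofilament mean. Of the 23 partners, 4 had positive slopes that passed, against 8.34% of all probe sets tested, and 3 negative, against 6.84%. Positive were Gem (0.27), a small GTPase that restrains calcium channels, Fgf12 (0.10), an intracellular FGF that binds sodium channels, Sptbn4 (0.081), the beta IV spectrin of initial segments, and the kinase Camk2g (0.061). Negative were Fgf13 (-0.12), another sodium channel binding FGF, and the active zone proteins Rimbp2 (-0.12) and Rims2 (-0.069). Of the 5 partners below the filter 1 had a slope that passed in the fit of all probe sets, Stac2 (0.18, limma adjusted p = 0.00418). This fit called a positive slope for 4.51% of all probe sets. Of the 10 calcium handling genes, Ryr2 (0.24), the ryanodine receptor, and Atp2b2 (0.12), a plasma membrane calcium pump, had positive slopes that passed, and the sodium-calcium exchanger Slc8a1 a negative one (-0.13). The calls of Gem, Fgf12, Rimbp2, Ryr2, Atp2b2 and Slc8a1 held with any 1 rat left out and without water rats 7 and 8. With the mean of all probe sets of a gene, Slc8a1 had a slope of -0.040 and no longer passed (adjusted p = 0.128), and neither did Camk2g (0.028, adjusted p = 0.184). Those of Sptbn4 and Camk2g ended in 6 of the 15 fits each, of Rims2 in 3 and of Fgf13 in 1, and none of these 4 passed without water rats 7 and 8 (adjusted p from 0.108 to 0.219).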

How the data were processed

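Arrays of 15 rats were analysed, grouped as ethanol (7) or water (8) by the source names in the labels. The values are log2 expression per probe set, deposited by the authors, who used RMA per the submitters' processing notes. The sources used here give neither its software version nor any batch. RMA removes a shift common to most transcripts and compresses dim probe sets. Of 31099 probe sets 57 were controls, and 0 columns of values were left unused. No detection calls were used, and the number of arrays limits the precision. In the platform annotation 20837 probe sets had 1 symbol and 425 several, and all 38 members were found by Entrez number in RefSeq's GRCr8 table. No coordinates are given for probe sets, since the files state no assembly.

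The 18625 probe sets whose mean reached the 40th percentile were tested by limma (version 3.58.1, with R 4.3.3) using lmFit and eBayes without covariates. All p-values are two-sided, and Benjamini-Hochberg adjustment ran over the whole set. Genes below the filter came from the fit of all 31042. Exact permutation tests used all 6435 divisions of the rats, with a smallest p of 1.55e-04. Neurofilament slopes came from the same tool with treatment as a term, over 18621 probe sets without those of Nefh, Nefm and Nefl; they replaced a planned adjustment over the channel genes alone. Both fits were tested on simulated data with 200 changed probe sets, drawn at random from those tested. For ethanol against water 48% of changes of 0.2 log2 units were recovered, 72% of 0.3 and 86% of 0.5. For the slope 2% were recovered at 0.05, 56% at 0.1 and 90% at 0.2. False calls were 10 of 163 and 7 of 131. Recovery was not computed for the channel genes, which varied more than most kept probe sets. Nothing in the labels names separate litters, so p-values measure the spread between these rats.

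The members, gene lists and tests were chosen with earlier results of these data known. Full values are given for called genes and, in each of the 9 families, for the gene with the smallest p and the gene with the highest mean. In the partner and calcium lists the called genes are named, or the smallest p. Other genes with values were chosen after their values were seen. The labels number the animals. Deviations of same-numbered rats from their group means correlated between -0.41 and 0.29 over 7 pairs, 4 of them above 0.1. Of the 7 ethanol rats, 1 correlated best with the water rat of its own number. The numbers were therefore not taken to pair the rats. Alternatives were the filter, the prior, array weights, median centring, covariates, the mean of all probe sets of a gene, a replicate block and leaving out rats. Leaving out water rats 7 and 8 together, the alternatives for the slopes, and those for Scn9a, Scn2a, Nfasc and Itpr1 were chosen after seeing the data.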

Additional observations from a re-analysis of the deposited data

Results flagged for a closer look

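In 9 of the 78 groups of 7 or 8 rats that were examined, 1 rat lay far from the others by Dixon's test, and chance flags about 1 in 20 groups. Of the genes that passed the filter, Scn3a was low at 10.13 log2 units in water rat 7, where the other water rats had 10.49 to 10.72. Ethanol rat 8 was low for Cacna1h at 9.03, where the other ethanol rats had 9.44 to 9.74, and for Cacnb1 at 8.66, where they had 8.81 to 8.92. The other 6 were genes below the filter. Cacng6 was high in ethanol rat 8 at 6.30 (others 5.98 to 6.12), Cacna1s low in ethanol rat 6 at 5.24 (others 5.43 to 5.49), Cacng5 high in ethanol rat 5 at 5.67 (others 4.98 to 5.24) and Hcn3 low in ethanol rat 4 at 6.54 (others 6.72 to 6.84). Cacna1f was high in water rat 8 at 6.62 (others 5.92 to 6.13) and Cacng7 in water rat 7 at 6.47 (others 5.95 to 6.18).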

How the results depend on the processing

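The count of 0 channel genes called for ethanol against water was 0 in all 10 other settings and in all 15 fits with 1 rat left out. The count over all probe sets was 173, and 100 with the mean of all probe sets of a gene, 263 with the neurofilament mean as a covariate, 59 with the replicate block, and 100 (without ethanol rat 7; 102 without ethanol rat 8) to 180 with 1 rat left out. Channel genes with a positive slope were 1, and 2 without the filter and 2 with the replicate block; those with a negative slope were 6, and 0 with the replicate block (Scn2a then had a slope of -0.10 and an adjusted p of 0.0673), 1 without water rats 7 and 8, and 3 to 10 with 1 rat left out. All probe sets with a positive slope were 1553, and 966 with the gene mean, 450 with the block and 655 without water rats 7 and 8; with a negative slope they were 1273, and 552, 90 and 169 in the same settings, 833 with median centring, 814 without the filter and 641 to 1413 with 1 rat left out, the lowest being 641, 724, 741 and 760 without water rat 7, 8, 3 and 1. Median centring gave 1788 positive beside its 833 negative. Counts with the gene mean, for the treatment and for the slope, are of genes and not of probe sets. Those without the filter are over more probe sets than the main fit. Neither kind of count compares directly with the main counts. With the block the slopes of Gem, Atp2b2 and Ryr2 still passed. Those of the other 7 called partner and calcium handling genes above the filter did not. Without the filter the slopes of Sptbn4 and Camk2g did not pass. Differences that changed sign were uncalled in every setting. After fitting the first principal component Scn1a, at -0.22 without it, was at 0.0040, Cacna1d at -6.3e-05 and Cacna2d3 at -0.044. With array weights Cacna1d was at -0.0014 and Cacna1c at 0.0024. With the replicate block Cacna1c was at 0.018 and Cacna2d1 at 0.0092. Without water rats 7 and 8 Cacna1d was at -0.021 and Cacna2d3 at -0.069. Cacng2 was at -0.026 with the gene mean and -0.012 with median centring. With 1 rat left out Cacna1c ranged from -0.055 to 0.022, Cacna2d1 from -0.13 to 0.019, Cacna2d3 from -0.023 to 0.047, Cacng2 from -0.038 to 0.044 and Hcn2 from -0.021 to 0.078. The cause of these moves was not tested. Arrays without detection calls limit what can be said of the 16 dim genes.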
